A study of Mus musculus with 21 samples.

Results

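Antisense and bidirectional-promoter lincRNA loci are the entries of the deposited expression tables whose symbol starts with linc-, names a coding gene, and ends in -AS or -BP. The ending -AS marks a transcript assigned to the strand opposite the named gene, and -BP marks a transcript assigned to a promoter shared with it. Entries were taken by symbol alone, leaving out linc-Slc7a5-AS, and each was set beside the coding gene in its name, called its partner below. The linc-Brn1b table held 4545 such entries of 40770, namely 3819 ending -AS and 726 ending -BP. The Peril and Fendrr tables each held 4778 of 42760, with 4112 ending -AS and 666 ending -BP.

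A long noncoding RNA can start from the same open promoter as a coding gene and run away from it, or can run through the gene on the opposite strand. Divergent promoters of this kind are typically rich in CpG. Noncoding transcripts at such sites are commonly made at low levels and often follow the tissue and stage of the gene beside them, and several, such as Dlx6os1 at the Dlx6 locus, lie next to regulators of brain development.

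RNA was sequenced from 3 mouse strains in which a lincRNA locus was replaced by a lacZ cassette, comparing homozygous knockouts with wild-type animals. The Peril strain (linc-Sox2+/+ and linc-Sox2-/- in the sample labels) gave E18.5 brain, and the Fendrr strain (linc-Foxf1a+/+ and linc-Foxf1a-/-) gave E14.5 lung. The linc-Brn1b strain (linc-Brn1b+/+ and linc-Brn1b-/-) gave whole brain at P7 besides telencephalon from embryos of E13.5 or E15.5. Each group had 2 samples, apart from 3 linc-Brn1b-/- samples at E15.5, which made 21 samples in all. The knockouts carried a LoxP-flanked neomycin gene, and the targeted stem cells were 129 and C57BL/6 hybrids.

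The tables give 1 value per group, the authors' pooled FPKM (fragments mapped per kilobase of transcript, scaled to library size). No value per sample was used, so no difference below has a replicate check, an error or a p-value, and the sequencing depth of the samples is unknown. Every comparison is therefore a description of 2 pooled values, set beside the same count over all entries. A difference is log2(FPKM + 0.1) in knockout minus wild type, or in the later minus the earlier age. An entry was compared where the higher of both values reached 1 FPKM, and was called where the difference reached 1, which is 2-fold.

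The deleted loci were checked first. The entry at the linc-Brn1b locus was 1.60, 2.50 and 0.799 FPKM in wild type at E13.5, E15.5 and P7 and is listed at 0 in each knockout group. The entry over Fendrr, linc-Cox4nb-4, was 38.4 FPKM in wild-type lung and 0.0450 FPKM in knockout. The entry over Peril, linc-Atp11b-4, went against its labels, with 0.0109 FPKM in the group labelled wild type and 4.65 FPKM in the group labelled knockout, so the Peril groups are named by their labels throughout. Every direction given for the Peril strain would turn if these labels were exchanged, which was not tested. Transcripts of Ddx3y, Eif2s3y, Kdm5d and Uty, all on the Y chromosome, were near 0 in 1 genotype of each comparison. Their summed level was 49.2 FPKM in wild type against 0.0133 FPKM in knockout at E13.5, 33.6 FPKM against a listed 0 in lung, and 0.00662 FPKM against 21.0 FPKM at E15.5. Sex and genotype therefore cannot be told apart in these values. Tissue markers matched the labels: the surfactant gene Sftpc was 819 FPKM in wild-type lung and 0.0697 FPKM in the brain group labelled wild type at E18.5, while the summed level of 5 neuronal markers was 13.6 FPKM and 2435 FPKM. Cardiac markers were also present in lung, with a summed level over 5 genes of 234 FPKM in wild type against 731 FPKM in knockout.

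Most loci of both classes lay within the same assembled locus as their partner. In the linc-Brn1b table, 3654 of 3819 -AS entries and 378 of 726 -BP entries had exactly the coordinates of the partner's locus. For these the table does not give where the lincRNA itself starts and ends. Of such -AS entries, 3580 had a partner with an annotated strand. GENCODE annotates a noncoding gene on the opposite strand at the locus of 1045 of them (29.2%). Among the 497 that reached 1 FPKM in a group it does so for 184 (37.0%). A further 331 -BP entries had a locus of their own, a median of 144 bp from the partner and at most 506 bp away. All 325 of those whose partner has an annotated strand lay on the 5′ side of the partner. It was 348 of 348 in the Fendrr strain and 347 of 347 in the Peril strain. Among the -AS entries, 40 in the linc-Brn1b table had a separate locus. Of these, 28 lay within 1000 bp of the partner, and 27 of the 28 were on its 5′ side.

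**Figure D1:**
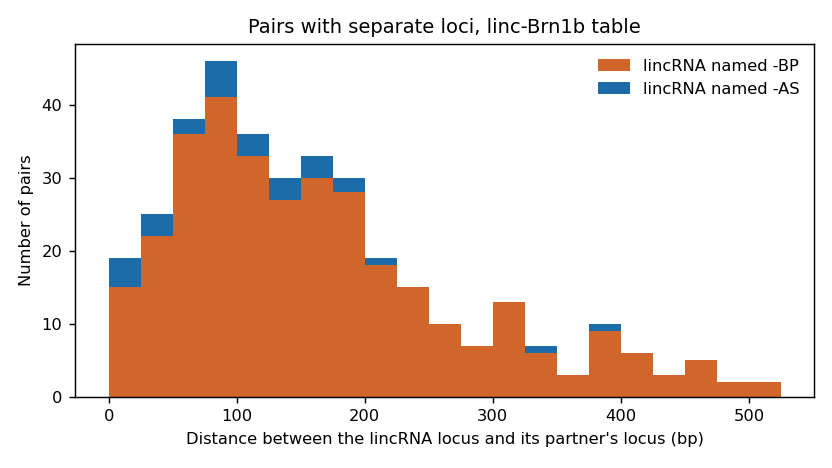
Distance in bp between the locus of each lincRNA and that of its partner (x axis) against the number of pairs (y axis, bins of 25 bp), for pairs with separate loci in the linc-Brn1b table. The distances of -BP entries had a median of 144 bp and ended at 506 bp; -AS entries with distances above that range are not drawn.

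The DNA between such divergent loci was read from mm9 (NCBIM37) on the coding strand of the partner, from the end of the lincRNA locus to the start of the partner's locus. Locus ends were those of the linc-Brn1b table, apart from linc-Ivns1abp-BP, for which they were those of the Peril table. The sequences are shown because they lie between the assembled loci whose levels are compared below. For linc-Rps2-AS this holds for the assembled loci only. GENCODE annotates Rps2, on the plus strand, as overlapping the locus of linc-Rps2-AS, so the stretch shown need not precede the annotated start of Rps2. Capitals mark motifs found on either strand. The motifs searched were the GC box GGGCGG, the pentamer CCAAT of the CCAAT box, the TATA box as TATAAA, the ETS core CCGGAA, the NRF1 core GCGCATGC and the YY1 core ATGGCGG. They can overlap one another.
linc-Pigb-BP to Pigb, chr9:72887507-72887524, minus strand: acttcctgccgcggtagt
linc-Tgif2-BP to Tgif2, chr2:156665683-156665812, plus strand: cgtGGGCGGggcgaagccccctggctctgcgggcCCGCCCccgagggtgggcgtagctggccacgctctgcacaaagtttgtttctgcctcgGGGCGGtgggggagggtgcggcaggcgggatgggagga
linc-Cacna2d1-BP to Cacna2d1, chr5:15440456-15440508, plus strand: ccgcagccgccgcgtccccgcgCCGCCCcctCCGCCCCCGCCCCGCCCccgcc
linc-Pou3f1-BP to Pou3f1, chr4:124334738-124334888, plus strand: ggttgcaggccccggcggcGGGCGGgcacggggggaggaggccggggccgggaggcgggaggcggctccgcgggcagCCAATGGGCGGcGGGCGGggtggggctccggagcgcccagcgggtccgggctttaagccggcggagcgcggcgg
linc-Lhx8-BP to Lhx8, chr3:153993525-153993784, minus strand: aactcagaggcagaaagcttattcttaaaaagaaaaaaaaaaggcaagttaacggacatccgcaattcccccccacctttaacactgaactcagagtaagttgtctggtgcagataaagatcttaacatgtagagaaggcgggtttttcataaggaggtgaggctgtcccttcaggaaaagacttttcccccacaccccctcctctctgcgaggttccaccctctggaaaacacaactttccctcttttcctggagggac
linc-Ivns1abp-BP to Ivns1abp, chr1:153191578-153191627, plus strand: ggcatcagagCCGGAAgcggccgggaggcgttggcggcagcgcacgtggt
linc-Rps2-AS to Rps2, chr17:24856911-24857007, plus strand: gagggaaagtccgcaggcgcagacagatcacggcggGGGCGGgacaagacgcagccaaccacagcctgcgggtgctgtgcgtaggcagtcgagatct

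The stretches between loci differed in base composition. The 53 bp between linc-Cacna2d1-BP and Cacna2d1 was 94.3% G and C and held 4 GC boxes, whereas the 260 bp between linc-Lhx8-BP and Lhx8 was 46.2% G and C and held none of the motifs. The ends depend on the assembly. In the Peril and Fendrr tables linc-Cacna2d1-BP lay 19 bp from Cacna2d1, and linc-Tgif2-BP lay 145 bp from Tgif2. The 151 bp beside Pou3f1 held 3 GC boxes and 1 CCAAT box in 84.1% G and C.

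Over all partners, promoters were taken as 250 bases before to 50 bases after the annotated start of the gene in the same build. Promoters of -BP partners were richer in CpG than those of coding genes in general. Of 712 promoters of -BP partners, 67.8% had an observed-to-expected CpG ratio of 0.6 or more, against 56.8% of 3202 promoters of -AS partners and 45.2% of all 22220 coding promoters. Their median G and C content was 62.7%, 59.0% and 55.3%. A GC box was found in 64.5%, 55.3% and 43.5%, and TATAAA in 6.88%, 9.37% and 13.4%. The CCAAT box was found at nearly equal shares, 37.1%, 37.2% and 38.0%. The ETS core was in 22.1%, 20.1% and 17.5%, the YY1 core in 5.48%, 5.31% and 4.97%, and the NRF1 core in 3.65%, 3.37% and 3.31%. A match is a description of the letters and not a site.

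Entries of both classes were mostly at low levels. In the linc-Brn1b strain, 533 of 3819 -AS entries (13.96%) and 155 of 726 -BP entries (21.3%) reached 1 FPKM in at least 1 of the 6 groups, compared with 376 of 8361 other lincRNA entries (4.497%). In the Peril strain the shares were 10.7%, 15.02% and 3.41%, and in the Fendrr strain they were 10.2%, 11.4% and 2.75%. The share of -BP entries was above that of -AS entries in each of the 10 groups. In wild-type telencephalon at E13.5, for example, 11.7% of -BP, 8.06% of -AS and 2.70% of other lincRNA entries were at 1 FPKM or more. Entries listed at 0 in every group were 425 of the -AS and 28 of the -BP entries of the linc-Brn1b table.

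**Figure D2:**
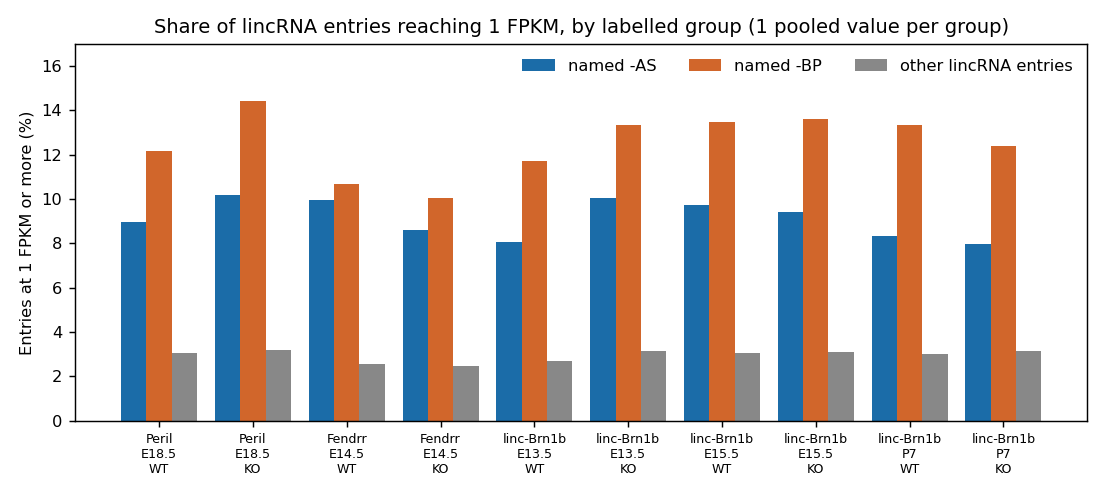
Percent of entries at 1 FPKM or more (y axis) in each of the 10 labelled groups (x axis), for entries named -AS, entries named -BP and other lincRNA entries, with 1 pooled value per entry and group. The -BP bars lie between 10.1% and 14.4% and the -AS bars between 7.99% and 10.2%, above the other lincRNA entries in every group.

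Partners were higher than their lincRNAs. Among -AS pairs with the lincRNA at 1 FPKM or more in wild-type telencephalon at E13.5, the partner exceeded it by a median of 3.16 on the log2 scale over 297 pairs. The lincRNA was the higher of the pair in 31 of them (10.4%). For -BP pairs the median was 3.01 over 85 pairs, with the lincRNA higher in 6. At P7 the medians in wild type were 2.71 and 2.22. FPKM is a level per length, so these are comparisons of transcript levels. The TruSeq kit and counting used are not stated to keep strand, however, so reads of an antisense lincRNA and its overlapping partner cannot be told apart, and both values rest on how Cufflinks divided them.

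Of the entries, 2321 stood on a single row in each of the 3 tables with overlapping loci, and 235 of these averaged 1 FPKM or more over the 10 groups. The 3 tables were scaled separately, so levels are given side by side. The highest -BP entry was linc-Zbtb37-BP on chromosome 1, from 162938925 to 163000763 of mm9. Its shared locus also holds Gas5, a noncoding host gene of small nucleolar RNAs (snoRNAs), besides Zbtb37, which encodes a zinc finger protein. It was 92.5 and 29.9 FPKM in E18.5 brain labelled wild type and knockout, 243 and 223 FPKM in lung, 120.3 and 32.0 FPKM at E13.5, 212 and 221 FPKM at E15.5, and 69.9 and 39.6 FPKM at P7. Zbtb37 itself ran from 3.29 to 6.70 FPKM, so the lincRNA entry stood above its partner in every group.

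The next -BP entry, linc-Pigb-BP, lay 18 bp from Pigb in the linc-Brn1b table and 30 bp away in the others. Pigb encodes a mannosyltransferase of GPI anchor synthesis. The lincRNA had a locus of its own on chromosome 9, from 72887525 to 72890582. It ran from 10.1 FPKM in both P7 groups to 29.4 FPKM in knockout lung, above Pigb (3.82 to 5.46 FPKM) in every group. linc-Tgif2-BP, beside the gene for a homeobox repressor of TGF-beta signalling, was 21.5 and 21.9 FPKM in lung wild type and knockout but 1.81 and 1.69 FPKM in E18.5 brain. Its partner Tgif2 was 16.2 and 16.5 FPKM in lung and 4.18 and 3.78 FPKM in E18.5 brain. The remaining 2 of the 5 highest were linc-Mettl4-BP (2.00 to 17.4 FPKM) and linc-Mll5-BP (1.34 to 9.63 FPKM).

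Among the -AS entries the highest mean was that of linc-2610528E23Rik-AS, in a locus of 340729 bp on chromosome 16 that also holds Filip1l. It was 235 and 327 FPKM in wild type and knockout at E13.5, 15.3 and 16.8 FPKM at E15.5, and 138 and 96.6 FPKM at P7. The E15.5 groups were thus low and the groups before and after them high, while the coding gene stayed between 9.87 and 15.1 FPKM. linc-Cpsf2-AS, which shares the locus of a gene for an mRNA 3′ end processing factor, was 153 and 152 FPKM in E18.5 brain, 135 and 145 FPKM in lung, 36.4 and 13.55 FPKM at E13.5, 36.7 and 38.4 FPKM at E15.5, and 54.1 and 52.0 FPKM at P7. The group standing apart within its table was the E13.5 knockout.

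linc-Sox4-AS lies at the Sox4 gene on chromosome 13 (29036493 to 29067337), where GENCODE annotates the lincRNA Gm17419 on the strand opposite Sox4. Sox4 is a transcription factor of neural progenitors and young neurons. The lincRNA was 55.8 and 69.5 FPKM at E13.5, 78.9 and 76.7 FPKM at E15.5 and 12.5 and 8.16 FPKM at P7 in wild type and knockout. Sox4 was 180 and 211, then 278 and 266, and then 29.6 and 22.9 FPKM. Both were highest at E15.5 and lowest at P7 in each genotype. linc-Morc2a-AS, whose locus also holds the lincRNA Tug1, was 38.7 and 38.2 FPKM in E18.5 brain and 37.1 and 38.6 FPKM in lung, but 0.716 to 1.39 FPKM in the separately assembled linc-Brn1b table. There a separate entry for Tug1 shares its coordinates, which is not so in the Peril and Fendrr strains. What the symbol covers can therefore differ between them. linc-Eif4ebp2-AS was 26.6 and 24.2 FPKM at E13.5 and 4.81 and 5.22 FPKM at P7.

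In 17 of 234 pairs averaging 1 FPKM or more for the lincRNA, its mean exceeded that of the partner. By ratio over all 2321, the leading entries were linc-Zbtb37-BP, linc-Fsd2-AS, linc-1810033B17Rik-AS, linc-Tspan32-AS and linc-Olfr1324-AS. linc-Fsd2-AS, in a locus where a snoRNA and the lincRNA 2900076A07Rik are annotated, ran from 3.36 to 5.72 FPKM over the 10 groups and Fsd2 from 0.0741 to 1.27 FPKM. linc-1810033B17Rik-AS was 1.57 and 0.917 FPKM at E13.5, 2.80 and 3.998 FPKM at E15.5 and 9.35 and 8.86 FPKM at P7.

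A few entries were found in 1 organ. Of the 2321, 3 were at 1 FPKM or more in both lung groups and under 0.1 FPKM in all brain groups. linc-Tcf21-AS, beside the gene for a mesenchymal transcription factor of lung development, was 2.65 and 2.47 FPKM in lung wild type and knockout and is listed at 0 in all 8 brain groups. Tcf21 was 83.7 and 89.5 FPKM in lung and at most 0.341 FPKM in brain. The others were linc-Ccdc154-AS (2.21 and 1.42 FPKM in lung) and linc-Mgp-AS (1.78 and 1.30 FPKM), whose partner encodes matrix Gla protein. Mgp itself was not confined to lung, with 460 and 458 FPKM there and 22.2 and 22.1 FPKM in P7 brain.

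Conversely, 5 entries were at 1 FPKM or more in all brain groups and under 0.1 FPKM in both lung groups. linc-Slc32a1-AS, at the gene for the vesicular GABA transporter, was 24.8 and 23.7 FPKM at E13.5, 27.1 and 27.6 FPKM at E15.5, 4.58 and 5.13 FPKM at P7 and 9.37 and 11.5 FPKM at E18.5. The other 4 were linc-Nrn1-AS, linc-Cacna1e-AS, linc-Cacna2d1-BP and linc-Brsk2-BP, with partners that encode neuritin, 2 calcium channel subunits and a kinase of neuronal polarity. Their partners were at most 0.252 FPKM in lung apart from Cacna2d1, which was 6.83 and 5.72 FPKM there while its divergent lincRNA was 0.0526 and 0.0533 FPKM.

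The comparison of knockout with wild type asked whether loss of each lincRNA moved transcripts of these classes. Few entries passed 2-fold. In E18.5 brain of the Peril strain 538 entries were compared, and 11 were higher and 10 lower in the group labelled knockout (2.04% and 1.86%), where 0.862% and 0.652% of all 14729 entries were. In Fendrr lung 4 were higher and 10 lower of 496 (0.806% and 2.02%), against 1.2% and 0.722% of all. In linc-Brn1b telencephalon 4 were higher and 7 lower of 501 at E13.5 (0.798% and 1.40%, against 0.854% and 2.32%). At E15.5, 2 were higher and none lower of 490, against 0.22% and 0.308%. In P7 brain 4 were higher and 13 lower of 458 (0.873% and 2.84%, against 0.95% and 1.34%). A larger share of the other lincRNA entries passed 2-fold in each of the 5 comparisons. They gave 30 higher and 16 lower of 413 in the Peril strain, 14 and 18 of 332 in lung, 29 and 12 of 280 at E13.5, 1 and 2 of 266 at E15.5, and 24 and 15 of 285 at P7.

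Small differences leaned 1 way in 4 of the 5 comparisons and were evenly split at P7. Values were above 0 for 389 of 538 entries in the Peril strain, 123 of 496 in lung, 396 of 501 at E13.5, 158 of 490 at E15.5 and 230 of 458 at P7. The median difference was 0.12 over the 538 entries in the Peril strain, -0.18 over 496 in lung and 0.27 over 501 at E13.5, while over all entries it was 0.0039, 0.0038 and 0.065. At E15.5 and P7 it was -0.048 and 0.0015. In the first 3 both classes lay on the same side of zero: at E13.5 the median was 0.30 for -AS and 0.19 for -BP entries. The other lincRNA entries had medians of 0.14, -0.045 and 0.25, and the coding partners -0.00066, 0.0046 and 0.082. An entry had to reach 1 FPKM in the higher group, and no replicate error is available for these shifts.

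Coding partners passed 2-fold less often than all entries in each comparison and direction. Of 3262 partners compared in the Peril strain 9 were higher and 8 lower, of 3161 in lung 24 and 5, of 2870 at E13.5 9 and 52, of 2857 at E15.5 3 and 2, and of 3071 at P7 21 and 29. Where a lincRNA passed 2-fold and its partner was expressed, the partner passed too in 1 of 20 pairs in the Peril strain, 1 of 11 in lung, 3 of 10 at E13.5, 1 of 2 at E15.5 and 2 of 15 at P7. These were in the direction of the lincRNA, and no pair passed 2-fold in opposite directions. In each of the 5 comparisons 1 such pair was linc-Eif2s3y-AS with Eif2s3y on the Y chromosome.

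**Figure D3:**
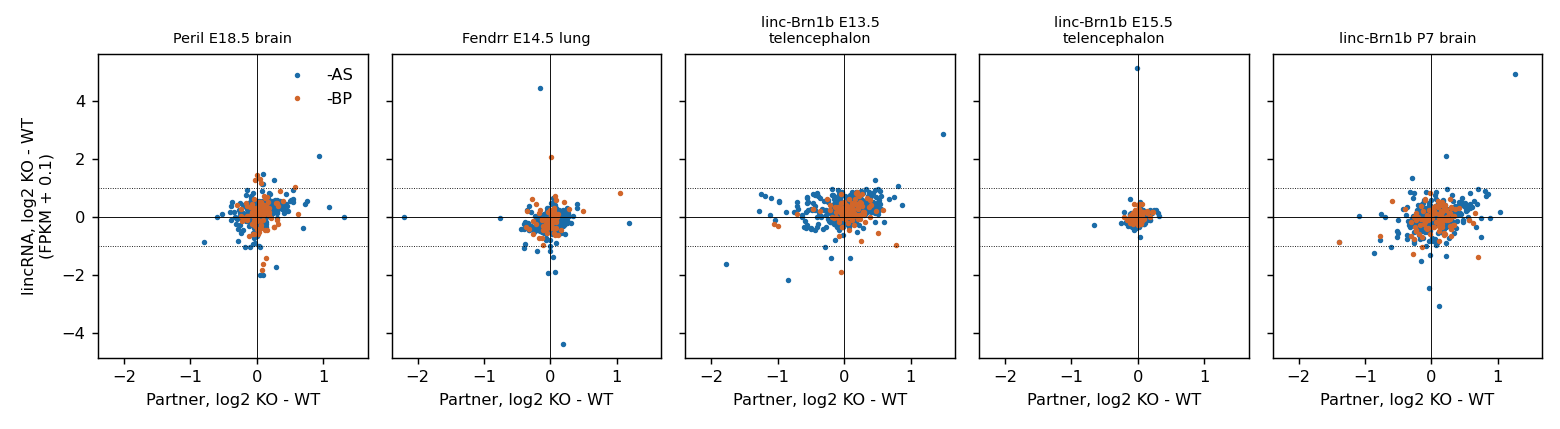
Difference in log2(FPKM + 0.1), knockout minus wild type as labelled, of each lincRNA (y axis) against its coding partner (x axis) in the 5 comparisons, for pairs at 1 FPKM or more in at least 1 genotype, with the Y-linked pair left out and dotted lines at 2-fold. The points spread further along the lincRNA axis than along the partner axis, and at E15.5 nearly all lie within 2-fold.

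Leaving out the Y-linked pair, lincRNA and partner lay on the same side of zero in 309 of 508 pairs in the Peril strain, 264 of 462 in lung, 325 of 474 at E13.5, 252 of 456 at E15.5 and 261 of 427 at P7. The correlation across pairs was weak, with Pearson's r of 0.24, 0.081, 0.28, 0.11 and 0.34 and Spearman's rho of 0.28, 0.23, 0.26, 0.20 and 0.33. With the Y-linked pair r was 0.45, 0.34, 0.53, 0.58 and 0.48. The points share libraries and, for identical loci, reads, and a partner named by several entries is in several pairs. Among -BP pairs with separate loci, which share no locus, 23 of 46, 25 of 40, 27 of 44, 27 of 47 and 22 of 37 lay on the same side.

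linc-Eif2s3y-AS, at the Y-linked gene for a translation initiation factor subunit, followed the Y-linked genes in each comparison. At E13.5 it was 2.99 FPKM in wild type but listed at 0 in knockout. It was 0.00172 and 1.80 FPKM at E15.5 and 0.00203 and 1.70 FPKM at P7. Eif2s3y was 16.5 and 0.00723, 0.00554 and 9.94, and 0.00727 and 11.7 FPKM. In lung the lincRNA was 1.16 FPKM in wild type and listed at 0 in knockout, and in E18.5 brain it is listed at 0 in the group labelled wild type and was 1.41 FPKM in the group labelled knockout. The direction turned with the genotype that had Y-linked transcripts.

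In the Peril strain the entries lower by the largest difference at 1 FPKM or more in both groups were linc-Usp2-AS, linc-Zbtb37-BP and linc-Fam5c-BP. linc-Usp2-AS, at the gene for a deubiquitinase, was 6.63 FPKM in the group labelled wild type and 1.95 FPKM in the group labelled knockout, a difference of -1.72, with Usp2 at 2.08 and 2.56 FPKM. linc-Fam5c-BP was 4.18 and 1.49 FPKM, a difference of -1.43, with its divergent partner at 13.8 and 15.2 FPKM. Higher were linc-Ivns1abp-BP (1.86 and 4.73 FPKM), linc-2610029G23Rik-BP (2.00 and 4.67 FPKM) and linc-Erlec1-AS (1.33 and 3.09 FPKM). The first 2 have separate loci, 50 and 165 bp from partners that were 105 and 109 FPKM and 9.56 and 9.96 FPKM. Of the called entries under 1 FPKM in 1 group, the 5 lower ones were linc-Gigyf2-AS, linc-Mboat2-BP, linc-Agtpbp1-AS, linc-Bmyc-AS and linc-Ccdc107-AS, and 8 were higher. Among those, linc-Hoxa3-AS at a homeobox gene of hindbrain and spinal cord, was 0.159 and 1.02 FPKM with Hoxa3 at 0.575 and 1.20 FPKM. The hindbrain marker Hoxb5 was 0.611 and 6.63 FPKM in the same groups. Others of its list went the other way, with Pcp2 at 6.34 and 2.39 FPKM and En2 at 3.41 and 2.46 FPKM. Gabra6 was near 0 in both groups. The summed level of the 4 hindbrain and cerebellar markers was 10.4 and 11.5 FPKM. Their part in the difference was not tested.

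In Fendrr lung linc-Usp2-AS was 11.01 FPKM in wild type against 2.86 FPKM in knockout, which is -1.91 on the log2 scale, with Usp2 at 1.48 and 1.55 FPKM. The entry was also lower in the group labelled knockout of the Peril strain, which shares no sample with the lung comparison. That direction rests on the Peril labels. In both strains its locus of 55634 bp is also that of the entries Rnf26, Mfrp, C1qtnf5 and linc-Rnf26-AS. No entry named linc-Usp2-AS was among those called in the linc-Brn1b strain. linc-Dnahc8-AS was 2.82 and 1.21 FPKM. linc-Olfr161-AS, at an olfactory receptor gene listed at 0 in all groups of both tables, was 1.09 FPKM in lung of wild type against 4.74 FPKM in that of knockout, but 9.76 and 4.001 FPKM in E18.5 brain labelled wild type and knockout. The lower group was thus wild type in lung and labelled knockout in brain. Entries under 1 FPKM in wild type and called higher were linc-Recql5-AS, linc-Dph5-BP and linc-Casc1-AS, at 2.04 to 2.53 FPKM in knockout. All 5 cardiac markers were higher in knockout lung (summed level 731 against 234 FPKM), and their part in these values was not tested.

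In the linc-Brn1b strain at E13.5, linc-Zbtb37-BP (-1.91), linc-Cpsf2-AS (-1.42) and linc-Clybl-AS (-1.03) were lower in knockout. linc-Clybl-AS was 7.54 and 3.65 FPKM at E13.5, 1.86 and 2.20 FPKM at E15.5, and 6.15 and 2.07 FPKM at P7, where it was lower again. A further entry of the same name shares its locus, and the values of that entry are not given. linc-Zfp808-AS, whose locus holds further entries of the same name, was higher, at 5.43 and 13.3 FPKM. linc-Hnrnpa1-AS was higher too, at 5.45 and 11.3 FPKM. GENCODE annotates Hnrnpa1 at its locus, but the deposited entry with that symbol is placed on another chromosome. linc-Mid1-AS, at the X-linked gene for a ubiquitin ligase, was 0.266 and 2.59 FPKM at E13.5 with Mid1 at 13.46 and 37.9 FPKM. linc-Rplp1-AS was 1.84 and 0.532 FPKM with the ribosomal protein gene Rplp1 at 1123 and 327 FPKM. These 2 and the Y-linked pair were those in which the partner passed 2-fold too. The others called under 1 FPKM in 1 genotype were linc-Ccdc107-AS (2.43 and 0.838 FPKM), linc-Sfrs18-AS (0.649 and 1.48 FPKM) and linc-Rps2-AS.

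linc-Rps2-AS lies on chromosome 17, from 24856476 to 24856910, 97 bp from the assembled locus of the ribosomal protein gene Rps2. GENCODE annotates Rps2 itself as overlapping that stretch, besides the snoRNA host gene Snhg9 and Snora78. Reads of Rps2 and of the lincRNA therefore cannot be told apart where they overlap. linc-Rps2-AS was 2.49 and 0.473 FPKM in wild type and knockout at E13.5, 2.30 and 2.11 FPKM at E15.5 and 5.01 and 0.823 FPKM at P7. In lung it was 1.99 FPKM in wild type and is listed at 0 in knockout. Rps2 was 865 and 483 FPKM at E13.5 but 548 and 535 FPKM at P7. The knockout values were low in 3 of the 5 comparisons and close to wild type at E15.5.

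**Figure D4:**
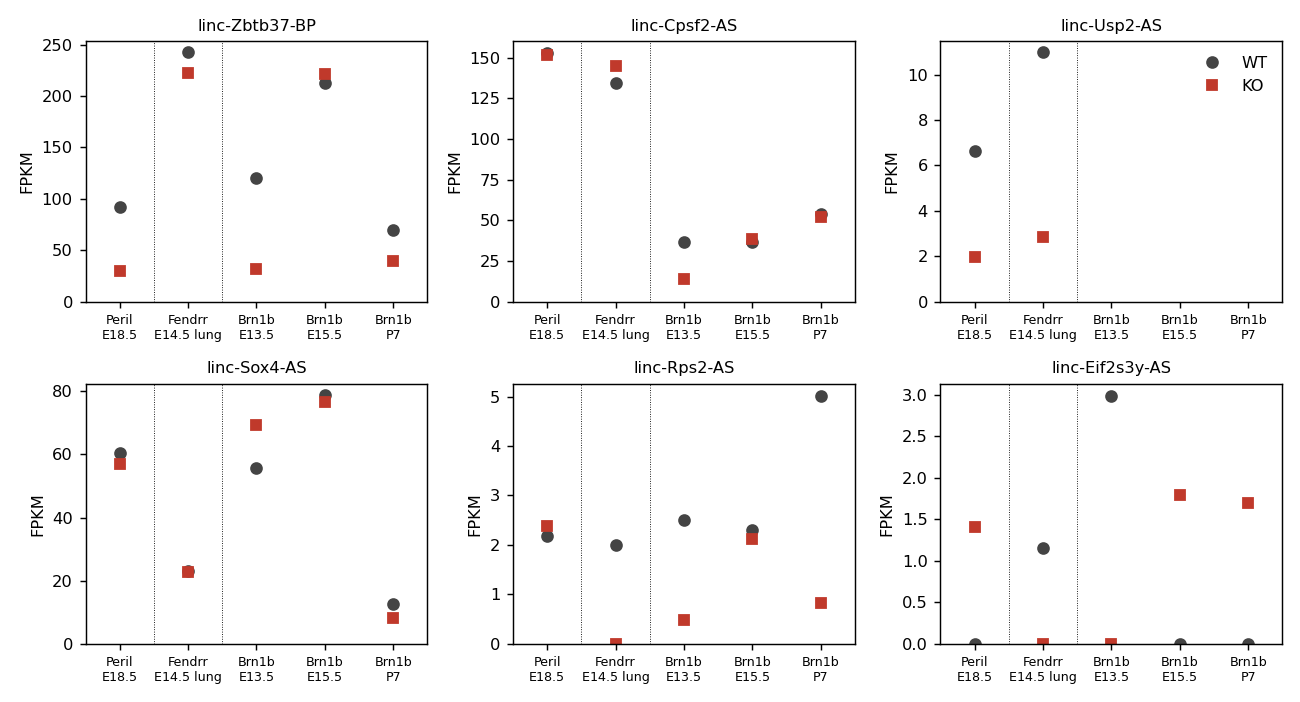
Pooled FPKM (y axis) of 6 lincRNA entries in the groups labelled wild type (circles) and knockout (squares) of each comparison (x axis), with dotted lines between tables that were scaled separately; linc-Usp2-AS is shown for the 2 tables where it has a single row. linc-Zbtb37-BP stands at 92.5 and 29.9 FPKM in the Peril strain and at 212 and 221 FPKM at E15.5, and linc-Eif2s3y-AS is near 0 in 1 genotype of each comparison.

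At E15.5 the 2 called entries were linc-Eif2s3y-AS and linc-Traf7-AS. linc-Traf7-AS has a locus of 764 bp on chromosome 17, apart from that of Traf7. GENCODE annotates a snoRNA, SNORD60, and the coding gene Rab26 as overlapping it, and the entry AK011460 has the same coordinates. Reads of these and of the lincRNA cannot be told apart where they overlap. linc-Traf7-AS was 0.0693 FPKM in wild type against 5.95 FPKM in knockout, against 0.0235 to 0.135 FPKM in the other 4 groups of that table. Traf7 was 38.1 and 37.9 FPKM. Choroid plexus markers also differed at this age, with Ttr at 231 FPKM in wild type against 1.39 FPKM in knockout, and their part was not tested.

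In P7 brain linc-Clybl-AS (-1.53), linc-Glcci1-AS (3.75 and 1.44 FPKM) and linc-Tep1-BP (6.60 and 3.16 FPKM) were lower by the largest differences at 1 FPKM or more in both genotypes. The other 10 lower entries included 2 at developmental transcription factor genes, linc-Zic5-AS and linc-Lmx1b-BP, and linc-Cbln1-AS, which was named after its values were seen. linc-Cbln1-AS, at the cerebellin gene of cerebellar granule cells, was 5.16 and 2.47 FPKM with Cbln1 at 38.0 and 24.9 FPKM. linc-Zic5-AS was 2.14 and 0.857 FPKM with Zic5 at 2.09 and 1.10 FPKM. linc-Lmx1b-BP was 1.09 and 0.453 FPKM with Lmx1b at 0.888 and 0.346 FPKM. Summed hindbrain and cerebellar markers were 20.7 FPKM in wild type against 2.11 FPKM in knockout, lower for all 4 genes, with Hoxb5 at 3.61 and 0.0165 FPKM. Other marker lists differed in the same groups, with myelin markers at 504 and 283 FPKM (lower for all 5 genes), radial glia and progenitor markers at 1043 and 590.4 FPKM (lower for 6 of 7) and astrocyte markers at 391.6 and 299 FPKM (lower for all 5). Microglial markers were higher for all 5 genes, at 45.4 and 57.3 FPKM. The part of these lists in the differences was not tested, and fewer cells of a type and less RNA per cell cannot be told apart in bulk tissue. The 4 higher entries were linc-4833420G17Rik-AS, linc-Glp1r-AS, linc-Epb4.1l4a-AS and linc-Eif2s3y-AS. linc-Glp1r-AS was listed at 0 in wild type and 2.95 FPKM in knockout, with Glp1r at 0.396 and 1.09 FPKM.

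Loci with an annotated snoRNA recurred among called entries, a feature looked at after the values were seen. Leaving out the Y chromosome, they held 4 of 20 called entries in the Peril strain, 4 of 13 in lung, 4 of 10 at E13.5, the 1 at E15.5 and 5 of 16 at P7. Among entries not called they held 40 of 517 (7.74%), 38 of 482 (7.88%), 37 of 490 (7.55%), 43 of 488 (8.81%) and 31 of 441 (7.03%). linc-Rps2-AS accounts for 3 of these calls, and linc-Zbtb37-BP, linc-Olfr161-AS and linc-Zfp808-AS for 2 each. Median locus length was 56.4 kb for called and 47.6 kb for other entries in the Peril strain, and 62.1 kb and 38.3 kb in lung, so called loci were also longer there. At E13.5 it was 49.9 kb and 45.9 kb, and at P7 66.3 kb and 56.4 kb.

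More entries passed 2-fold between ages than between genotypes of the linc-Brn1b strain. Between ages an entry was called where both genotypes, which have no sample in common, passed 2-fold in the same direction. The E13.5 and E15.5 samples were telencephalon and the P7 samples whole brain, so age and dissected region cannot be told apart. From E13.5 to P7, 113 of 508 entries were higher and 102 lower (22.2% and 20.1%), against 19.8% and 17.4% of all 14621 entries. Of -BP entries 31 were higher and 22 lower of 114, and of -AS entries 82 and 80 of 394. From E13.5 to E15.5, both telencephalon, 10 were higher and 11 lower of 484, against 2.06% and 2.05% of all entries. From E15.5 to P7, 203 of 537 passed 2-fold in either direction (37.8%), against 30.5% of all 14606 entries. Of the 203, 86 were higher and 117 lower at P7, where 2492 and 1968 of all entries were. The difference in wild type and that in knockout had r = 0.92 and rho = 0.93 over the 508 entries from E13.5 to P7, as a description across entries.

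From E13.5 to P7 most partners of called lincRNAs passed 2-fold in the same direction. Among pairs with both members compared, the partner of 104 higher lincRNAs was itself higher in 72 and lower in 2, and the partner of 98 lower lincRNAs was lower in 55 and higher in 5. Of all 14621 entries compared between these ages, 19.8% were higher and 17.4% lower. The share over all coding partners is not given. Across -AS pairs with identical loci, without the Y chromosome, r was 0.75 in wild type and 0.75 in knockout (rho 0.71 and 0.70, n = 361 pairs). Across -BP pairs with separate loci it was 0.73 and 0.67 (rho 0.65 and 0.58, n = 47 pairs). Across 121 other lincRNA entries and the gene in their name it was 0.10 and 0.068 (rho 0.14 and 0.11). Identical loci can share reads, whereas the separate ones do not overlap. A partner named by several entries counts once for each, so the pairs are not all of different partners. From E13.5 to E15.5, within telencephalon, few partners passed 2-fold with their lincRNA: 2 of 9 for the higher and 2 of 11 for the lower ones. Over that interval r across -AS pairs with identical loci was 0.65 in wild type and 0.50 in knockout (rho 0.65 and 0.56, n = 351 pairs). Across -BP pairs with separate loci it was 0.66 and 0.34 (rho 0.58 and 0.25, n = 44 pairs).

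**Figure D5:**
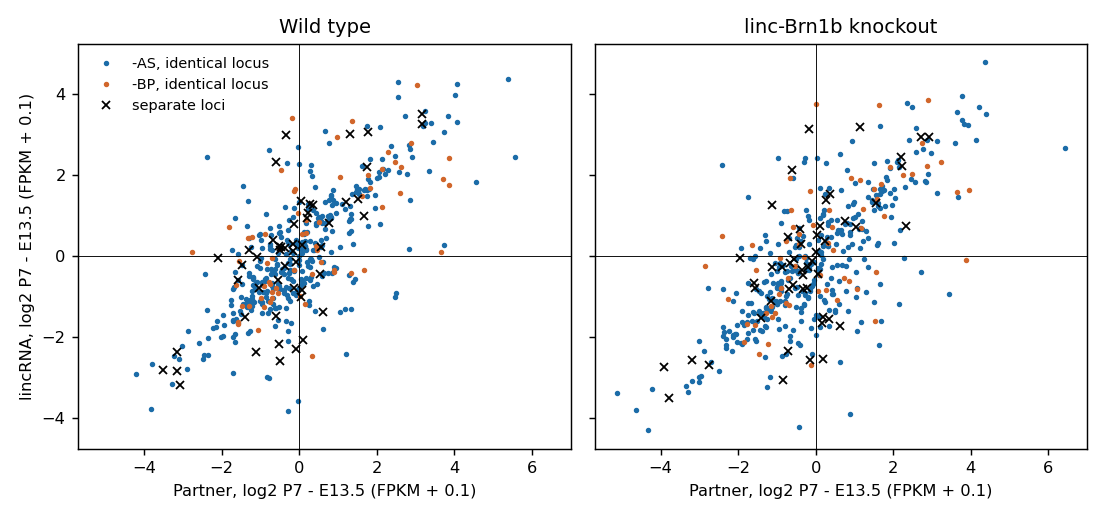
Difference in log2(FPKM + 0.1) from E13.5 telencephalon to P7 brain of each lincRNA (y axis) against its coding partner (x axis) in wild type and linc-Brn1b knockout, with the Y-linked pair left out. Pairs with identical loci (points) and separate loci (crosses) run along the diagonal in both genotypes, with r of 0.75 for -AS pairs with identical loci.

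The 5 largest increases to P7 were those of linc-Krt12-AS, linc-Gabrg3-AS, linc-Cntn4-BP, linc-Amph-AS and linc-Inhba-AS. linc-Gabrg3-AS, at the gene for a GABA-A receptor subunit, was 0.273 and 0.303 FPKM at E13.5, 0.649 and 0.741 FPKM at E15.5 and 5.81 and 6.11 FPKM at P7 in wild type and knockout. Gabrg3 was 0.365 and 0.491, 1.08 and 1.22, and 7.47 and 7.98 FPKM. linc-Cntn4-BP, beside the gene for an axonal adhesion molecule, went from 0.150 and 0.102 FPKM to 4.61 and 2.85 FPKM while Cntn4 went from 1.16 FPKM in both to 10.2 and 9.26 FPKM. linc-Amph-AS, at the gene for the synaptic vesicle protein amphiphysin, went from 0.127 and 0.120 FPKM to 3.39 and 2.92 FPKM. A further entry of the same name shares its locus. linc-Inhba-AS, at an activin subunit gene, and linc-Krt12-AS, at a keratin gene, ran from 2.34 to 4.21 FPKM in P7 brain.

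The largest decreases were those of linc-Faf1-AS, linc-Peg12-AS, linc-Spr-AS, linc-Fezf1-AS and linc-Glyctk-AS. linc-Faf1-AS was 7.12 and 5.89 FPKM at E13.5 and 0.410 and 0.225 FPKM at P7, a difference of -3.82 in wild type, while Faf1 was 19.4 and 18.7 FPKM and then 15.9 and 13.7 FPKM. The locus also holds Dmrta2, a transcription factor of cortical progenitors. linc-Peg12-AS was lower along with its imprinted partner, going from 4.79 and 5.02 FPKM to 0.260 and 0.160 FPKM where Peg12 went from 15.8 and 14.3 FPKM to 1.01 and 0.615 FPKM. linc-Fezf1-AS went from 2.10 and 1.74 FPKM to 0.146 and 0.131 FPKM along with Fezf1, a factor of forebrain patterning, from 8.30 and 6.32 FPKM to 0.762 and 0.696 FPKM. Sepiapterin reductase (Spr) and Glyctk were not called.

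Entries at genes for developmental transcription factors were mostly lower at P7. Of 88 in the linc-Brn1b strain, 23 reached 1 FPKM in a group, where 13.96% of all -AS and 21.3% of all -BP entries did. From E13.5 to P7, 16 were compared, of which 11 were lower and 3 higher. The shares lower and higher were 20.1% and 22.2% over both classes, and 17.4% and 19.8% over all entries. The partner of all 11 lower ones was lower as well. linc-Dlx6-AS, whose locus holds Dlx6os1 and a further entry of the same name, was 36.8 and 44.6 FPKM at E13.5, 37.0 and 35.5 FPKM at E15.5 and 4.90 and 7.86 FPKM at P7, where Dlx6, a homeobox factor of interneurons, was 12.5 and 13.05, 11.6 and 12.1, and 3.77 and 5.22 FPKM. linc-Lhx8-BP, 260 bp from the gene for a factor of ventral forebrain neurons, was 6.87 and 6.50 FPKM, 4.48 and 5.24 FPKM, and 0.676 and 0.926 FPKM. Lhx8 was 14.8 and 14.1, 10.6 and 11.7, and 1.67 and 2.00 FPKM. linc-Nr2f1-AS, linc-Id4-AS, linc-Sox5-AS and linc-Meis2-BP were lower too, by 1.85, 1.60, 1.34 and 1.23 on the log2 scale in wild type. The locus of linc-Sox5-AS holds a further entry of the same name.

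The 3 higher ones were linc-Sox8-AS, linc-Pou3f1-BP and linc-Lhx1-BP, whose partners did not pass 2-fold. linc-Sox8-AS was 2.95 and 2.61 FPKM at E13.5 and 9.89 and 8.68 FPKM at P7, with Sox8, a glial factor, at 8.97 and 10.2 FPKM and then 11.9 and 12.97 FPKM. linc-Pou3f1-BP was 1.07 and 1.09 FPKM and then 2.93 and 3.35 FPKM. In lung 17 of 84 such entries reached 1 FPKM, where 10.2% of all -AS and 11.4% of all -BP entries did. Among them were linc-Irx5-AS (6.50 and 5.62 FPKM in wild type and knockout), linc-Tbx2-AS (7.56 and 6.02 FPKM) and linc-Nr2f2-AS (9.25 and 6.78 FPKM).

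Over all entries 19.8% were higher and 17.4% lower from E13.5 to P7, and families of this size give only coarse shares. By the other families of partner, channels and transporters gave 11 higher and 5 lower of 24 lincRNAs, signalling genes 5 and 1 of 11, and zinc fingers 1 and 7 of 25. RNA processing genes gave 1 and 3 of 11, ubiquitin and proteolysis genes 2 and 3 of 13, chromatin genes none higher and 1 lower of 5, and mitochondrial genes none higher and 1 lower of 6. The lincRNAs of all remaining partners gave 90 higher and 70 lower of 397. No lincRNA at an olfactory receptor gene was compared.

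Opposite directions were found in 7 pairs from E13.5 to P7, all -AS. linc-Slc32a1-AS was lower at P7, from 24.8 and 23.7 FPKM to 4.58 and 5.13 FPKM, whereas Slc32a1 was higher, from 14.1 and 13.4 FPKM to 32.8 and 41.9 FPKM. linc-Gnao1-AS went from 1.89 and 2.49 FPKM to 0.711 and 0.747 FPKM while Gnao1, the main G protein alpha subunit of brain, went from 114 and 135 FPKM to 288 and 304 FPKM. linc-Fam111a-AS was higher, from 0.430 and 0.442 FPKM to 2.82 and 2.49 FPKM, where Fam111a went from 11.9 and 13.2 FPKM to 2.20 and 2.39 FPKM. linc-Fat4-AS was likewise higher with Fat4 lower, and linc-Abca3-AS, linc-Prkce-AS and linc-3300002I08Rik-AS lower with the partner higher. Further entries of the same names share the loci of linc-Gnao1-AS, linc-Fat4-AS and linc-Prkce-AS, and those are not among the 7 pairs.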

How the data were processed

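Tissue RNA of 21 mouse samples was sequenced from TruSeq libraries as paired 101 bp reads. Per the labels and the study's methods, the authors used TopHat2 for alignment to mm9, Cufflinks 2.0.2 for assembly and Cuffdiff2 for quantification. The deposited tables hold FPKM values, 1 pooled value per group and entry, in 10 columns. Strand of the libraries is not given in the sources used here. The tables' other columns hold the authors' fold changes, test statistics, p-values and q-values of their own comparisons, and were not used. The number of columns with values per sample was 0, so no test, error or interval was computed, and depth is unknown. A replicate could not be left out.

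Entries and gene lists were chosen with earlier results of these data known. Entries were matched to partners by exact symbol, unique in the table, and pairs on different chromosomes (10 or 11 -AS entries and at most 1 -BP entry in a table) were left out of pair comparisons. Differences used a pseudocount of 0.1 FPKM, a floor of 1 FPKM on the higher value and a threshold of 2-fold. On the log2(value + pseudocount) scale, changes of low entries are understated. Alternatives were pseudocounts of 1 and 0.01, a floor of 2 FPKM, no floor, 1.5-fold, median centring and a floor on the mean. Where several entries carry the same name, the values given are those of a single entry. Each entry makes a pair of its own, so a partner can be in more than 1 pair. Several entries named the same partner for 447 of 4025 partner symbols in the linc-Brn1b table. In the Peril and Fendrr tables it was 408 of 4266 each. Locus starts are counted from 0 in the tables and 1 was added. Sequence and annotation were mm9 (NCBIM37, GENCODE). Named entries were, per class, the 5 with the highest mean; per knockout comparison, up to 3 higher and 3 lower at 1 FPKM in both genotypes, and those under 1 FPKM in 1 genotype where 5 or fewer; the 5 largest increases and decreases to P7; entries of 1 organ; pairs in opposite directions; the 5 furthest above their partner; and those at developmental transcription factor genes. An entry that the rule selects is not reported here. Outside this rule, linc-Cbln1-AS and linc-Hoxa3-AS were named after their values were seen. Python 3.11.15 with pandas 2.3.3 was used.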

Additional observations from a re-analysis of the deposited data

Results flagged for a closer look

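linc-Eif2s3y-AS differed in direction between ages of the linc-Brn1b strain. Knockout minus wild type on the log2 scale, E13.5 gave -4.95, whereas E15.5 gave 4.22 and P7 gave 4.14. From E13.5 to P7 it was -4.92 in wild type and 4.17 in knockout, and from E13.5 to E15.5 -4.92 and 4.25. Y-linked genes differed between the same groups. linc-Mid1-AS went up by 1.62 from E13.5 to E15.5 in wild type and was -1.14 in knockout. linc-Rps2-AS was 1.09 from E15.5 to P7 in wild type and -1.26 in knockout. These differences between groups rest on 1 pooled value each and were not tested.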

How the results depend on the processing

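No paired analysis was possible because the tables give 1 pooled value per group, so leaving out a replicate was not run either. The number of entries past 2-fold moved with the floor and the pseudocount, in the order Peril, Fendrr, linc-Brn1b E13.5, E15.5 and P7 throughout. As reported it was 21, 14, 11, 2 and 17. Without a floor it was 91, 78, 58, 17 and 63, and at 1.5-fold it was 52, 33, 87, 4 and 70. With a pseudocount of 1 it was 8, 7 and 6 in the first 3 and 4 at P7. With a floor of 2 FPKM it was 9 and 9 in the first 2, then 1 at E15.5 and 8 at P7. With the floor on the mean of both groups, chosen after seeing the data, it was 13, 9, 1 and 9 in all but E13.5. The counts from E13.5 to P7, 113 higher and 102 lower, became 63 and 45 with a pseudocount of 1, 67 and 54 with a floor of 2 FPKM, and 338 and 250 without a floor. The lower count was 161 at 1.5-fold and 66 with the floor on the mean. The share of Peril pairs on the same side of zero was 60.9% and turned to 46.2% over pairs with separate loci only. Of 65 called values, 38 were no longer called with a pseudocount of 1, 1 with median centring and 0 with a pseudocount of 0.01. Depth is unknown, so entries near the floor have no stated precision.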
